A study of Saccharomyces cerevisiae x Saccharomyces paradoxus and Saccharomyces cerevisiae and Saccharomyces paradoxus with 40 samples.

Results

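The proteasome regulatory particle is the cap of the proteasome, the protease that degrades proteins tagged with ubiquitin. The genes described here are the 10 of its subunit genes that the deposited count tables list, chosen by systematic name among the 3217 genes of those tables. They are YER021W (RPN3), YDL147W (RPN5), YPR108W (RPN7), YDR427W (RPN9), YFR004W (RPN11) and YFR052W (RPN12) of the lid, YHR200W (RPN10), a ubiquitin receptor, and YKL145W (RPT1), YDL007W (RPT2) and YDR394W (RPT3) of the base. The rule reads gene names and no expression value, but the members were chosen with earlier results of these data known. Of the 3062 open reading frame names in the tables, 3058 end in W and 4 end in C. Shares of all genes given below are shares of the tested genes of these tables. RPN1, RPN2, RPN6, RPN8, RPN13, SEM1, RPT4, RPT5 and RPT6 were not analysed here, nor was RPN4, the gene of the transcription factor that drives proteasome genes.

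The study followed sporulation in the hybrid of Saccharomyces paradoxus and Saccharomyces cerevisiae and in both parent species, with 4 hybrid, 3 S. paradoxus and 3 S. cerevisiae libraries at each of 4 stages. All cultures spent a night in the rich medium YPD before transfer to sporulation medium with potassium acetate, a poor carbon source that, with starvation, sends diploid yeast into meiosis. T0 is the moment of that transfer and serves as the control, M1 is the start of meiosis I, M1M2 is the window in which meiosis I is ending while meiosis II begins, and M2 is the end of meiosis II. The hybrid replicates came from both directions of the cross, and the labels do not say which library came from which direction. Poly-A RNA was sequenced, and hybrid reads were deposited by species allele.

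In the regulatory particle the lid holds scaffold subunits around the deubiquitinase Rpn11, which cuts ubiquitin chains off substrates. The base holds a ring of ATPases, the Rpt proteins, which unfold substrates and feed them into the core particle, where peptide bonds are cut. In S. cerevisiae the transcription factor Rpn4 activates subunit genes together through a promoter element named PACE, and proteasome activity is needed for progress through meiosis, where cyclins and other regulators are degraded on schedule.

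The shared promoter element is shown first, because it is a feature that 9 of the 10 members share and that their selection did not use. The letters GGTGGCAAA were searched on both strands in the 300 bases before each start codon of the RefSeq R64 S. cerevisiae genome. They were present before 9 of the 10 members (90.0%), all but RPN10, against 73 of 6001 protein-coding genes (1.22%) and 38 of the 2766 genes of the tables with such a window (1.37%). The shorter run GTGGCAAA, which every full match contains, was present before 159 of the 6001 genes (2.65%). The matches lay between 87 and 176 bases before the start codon. The 9 stretches of 30 bases follow, 5′ to 3′ on the plus strand of R64, which is the coding strand of all 10 members, with the matched letters in capitals and the reverse complement where the element lies on the opposite strand.
RPN3, chrV:196843-196872: acgaaaaacaTTTGCCACCcaagaaagaga
RPN5, chrIV:190776-190805: ttgacttttcGGTGGCAAAatgcaaagggg
RPN7, chrXVI:742290-742319: ataagttaagTTTGCCACCcattgaggatt
RPN9, chrIV:1322086-1322115: gctttcatccGGTGGCAAAagtaagaacaa
RPN11, chrVI:153259-153288: ggacctccaaGGTGGCAAAttcacaagaaa
RPN12, chrVI:252398-252427: ctacacattaTTTGCCACCcattgaaattg
RPT1, chrXI:174048-174077: attaccgaatTTTGCCACCcgaaaactaaa
RPT2, chrIV:437906-437935: gtttttctccGGTGGCAAAtgtctcttttc
RPT3, chrIV:1261495-1261524: ctgaaagtaaGGTGGCAAAatagtaaatct
A match describes letters in the S. cerevisiae reference only. Rpn4 binding was not measured, and the S. paradoxus genome was not used here.

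Libraries held a median of 1348916 counts in genes (lowest 23453, highest 7732384). In 4 shallow libraries the total was 117049 for hybrid M2 replicate 3, 300704 for S. paradoxus M2 replicate 2, 159496 for S. cerevisiae M1 replicate 2 and 23453 for S. cerevisiae M1M2 replicate 2. Levels are given as CPM, the usual scaling of a gene's count by its library's total, here with TMM factors. The counts were tested with edgeR's quasi-likelihood F test in 1 model of all 40 libraries, and a gene was called at a Benjamini-Hochberg adjusted p under 0.05 over all tested genes of a contrast. Hybrid T0 replicate 4, with 378084 counts, also stood apart: the members summed to 18200 CPM there, against a T0 median of 8980. Of 7 meiotic marker genes, 7 rose at M2 over T0 in the hybrid, in S. paradoxus and in S. cerevisiae, with median log2 changes of 6.02, 5.88 and 6.9. NDT80, the regulator of middle meiosis, had 5690 to 7230 CPM in hybrid M2 libraries and 42.9 to 157 CPM in hybrid T0 libraries. DIT1, a spore wall gene, had 2240 to 3480 CPM in hybrid M2 libraries, 29.5 to 633 CPM in S. paradoxus M2 libraries and 165 to 1790 CPM in S. cerevisiae M2 libraries. Each library is a bulk culture, so fewer cells at a stage and less RNA per cell cannot be told apart. The labels call the replicates biological and do not say how the cultures were kept apart.

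The members were abundant and their levels lay close to each other. Per kilobase of coding length, the median over the 40 libraries was 966 CPM per kb for RPN11, 965 for RPN5, 777 for RPT2, 743 for RPN9, 700 for RPN10, 672 for RPN12, 662 for RPT3, 645 for RPT1, 572 for RPN7 and 511 for RPN3. Single libraries spread far wider than these medians differ: RPN11 ran from 129 to 3840 CPM per kb and RPN3 from 153 to 1110. Every member stood between the 91.1 and the 96.1 percentile of 2750 genes by this level.

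Over the 12 groups of genotype and stage each member varied less than the median tested gene. The range of the group means of log2 CPM was 1.09 for RPN10, 1.12 for RPT1, 1.25 for RPN3, 1.42 for RPN5, 1.47 for RPN9, 1.54 for RPN11, 1.67 for RPT3, 1.68 for RPT2, 2.7 for RPN7 and 3.2 for RPN12. Their median was 1.5, against 4.12 over all tested genes. That background was not matched for abundance, and the members are among the more abundant genes. The wide ranges of RPN12 and RPN7 include values from shallow libraries, given below. Across the 12 group means the 45 pairs of members had Pearson correlations of 0.07 to 0.9 with a median of 0.47, against a median of 0.04 over pairs of all genes. The points of such a correlation share libraries and scaling, and the pairs of all genes were not matched for abundance, so it is a description. RPN11 followed the mean of the other 9 most closely (r of 0.9), and RPN10 least closely (r of 0.3).

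As a group the members had their highest median summed level at M1M2 in all 3 genotypes. The S. cerevisiae libraries at that stage ran from 8100 to 19300 CPM, the highest being a shallow one. Summed over the 10 members, the median was 8980 CPM at T0, 8960 at M1, 12900 at M1M2 and 6220 at M2 in the hybrid. In S. paradoxus the same medians were 6520, 10500, 13500 and 8170 CPM, and in S. cerevisiae they were 8750, 5510, 11200 and 9330 CPM. In the hybrid 9 of the 10 members had their highest group mean at M1M2 (all but RPN3, highest at T0), against 26.4% of all genes. In S. paradoxus 9 of the 10 did (all but RPN5, highest at M1), against 20.8% of all genes. In S. cerevisiae 4 of the 10 did, against 15.9%. Those 4 include RPN12, whose mean there leans on the shallow library (values below). They also include RPT1, whose S. cerevisiae means spanned 0.15 log2 CPM over the stages. The hybrid mean was lowest at M2 for 8 members, all but RPN5 and RPT1. These are orders of means, and most of the steps between them did not pass the test.

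**Figure D1:**
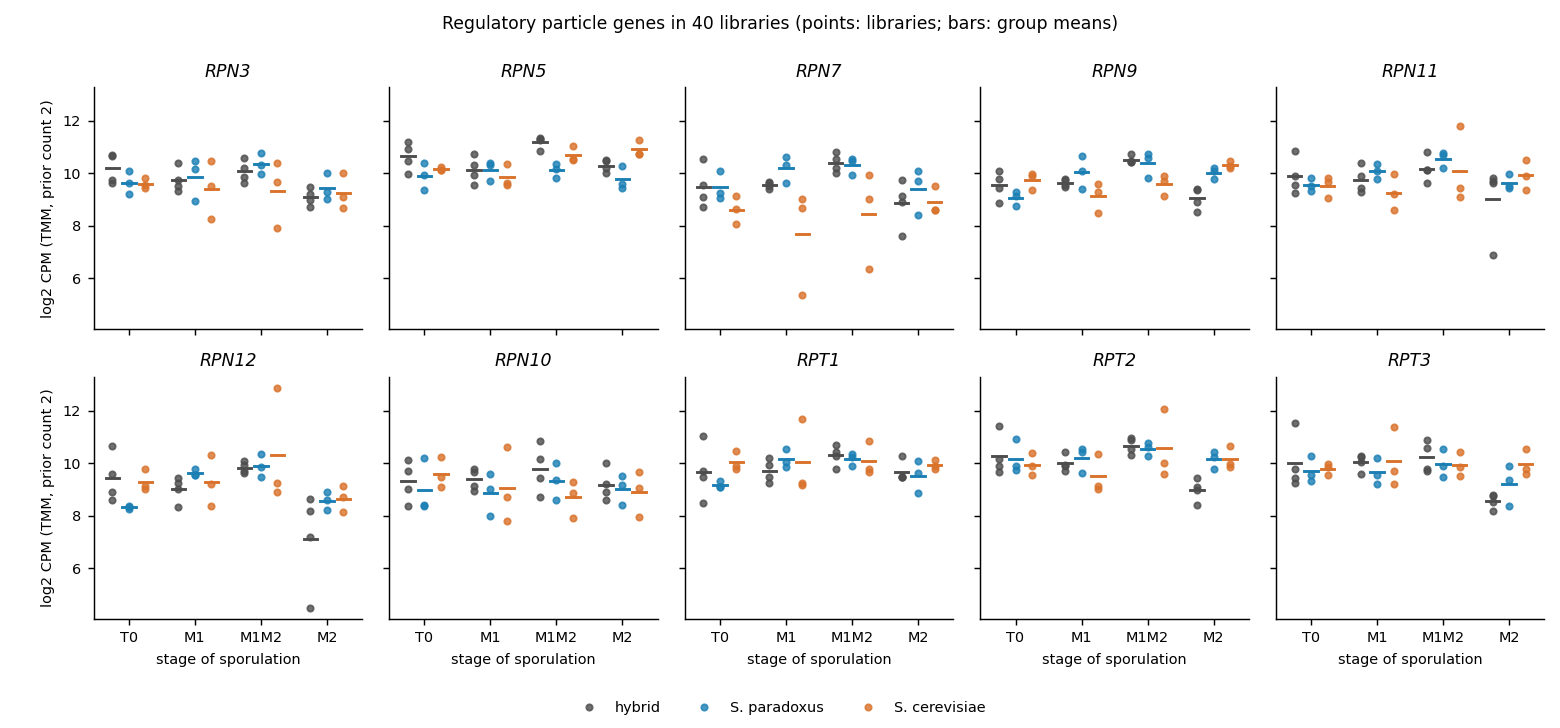
Level of each of the 10 regulatory particle genes in log2 CPM (vertical axis) at T0, M1, M1M2 and M2 (horizontal axis), in hybrid, S. paradoxus and S. cerevisiae libraries. Points are libraries and short bars are group means. The 3 genotypes overlap in most panels. The lowest hybrid point of RPN12 at M2 and the lowest S. cerevisiae points of RPN7 at M1 and M1M2 come from shallow libraries.

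The question for each genotype was how expression changes as sporulation proceeds. In the hybrid, 3 of the 10 members fell at M2 relative to T0, where 26% of all tested genes were called in either direction and 14% were called lower. They were the lid subunit gene RPN12 and the ATPase genes RPT3 and RPT2. None of the 10 had a positive log2 change, and the members' median was -0.63, against -0.22 over all genes.

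RPN12, the subunit that joins the lid last, had 383, 474, 760 and 1620 CPM at T0 in the hybrid, 685, 515, 602 and 323 at M1, 783, 964, 837 and 1070 at M1M2, and 292, 395, 21.7 and 146 at M2. The value of 21.7 CPM rests on 2 counts in the shallow replicate 3. The M2 and T0 values overlapped in a single pair of libraries. RPN12 fell by 1.88 on the log2 scale at M2 relative to T0 (SE 0.63, edgeR adjusted p = 0.0201).

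RPT3, a base ATPase, had 367, 433, 444 and 289 CPM at M2 and 867, 610, 690 and 2960 CPM at T0 in the hybrid, and the stages did not overlap. It fell by 1.74 on the log2 scale (SE 0.54, edgeR adjusted p = 0.011). RPT2, the ATPase whose tail helps to open the gate of the core particle, had 700, 546, 509 and 340 CPM at M2 and 961, 800, 1130 and 2740 CPM at T0, again without overlap. It fell by 1.43 (SE 0.51, edgeR adjusted p = 0.0311).

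These calls leaned on hybrid T0 replicate 4, the library with the high sum. Without it RPT3 was at -0.92 (adjusted p = 0.203), RPT2 at -0.87 (0.218) and RPN12 at -1.25 (0.147). With size factors by the relative log expression method, which moved the median of all genes in this contrast by 0.219 to 0.004, the members' median was -0.35, 3 members had positive changes, and RPN12 alone passed (-1.81, adjusted p = 0.0244), with RPT3 at -1.31 (0.0737) and RPT2 at -1.03 (0.141). RPN12 also missed the threshold without hybrid M2 replicate 3 (-1.55, adjusted p = 0.0564) or replicate 4 (-1.72, 0.0651). RPT2 missed it without hybrid M2 replicate 2 (adjusted p = 0.0581) or replicate 4 (0.0967), without S. paradoxus M1M2 replicate 1 (0.0574), and with DESeq2 (0.0741).

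The remaining lid genes did not pass at M2 relative to T0. RPN3, a scaffold subunit, had 506, 424, 585 and 710 CPM at M2 and 799, 868, 1600 and 1660 CPM at T0 in the hybrid, which did not overlap, with a log2 change of -1.15 (SE 0.52, edgeR adjusted p = 0.0944). RPN11, the deubiquitinase, was at -0.65, with 839, 800, 119 and 892 CPM at M2 and 753, 616, 960 and 1860 CPM at T0. RPN7, RPN9 and RPN5 were at -0.61, -0.52 and -0.41. The ATPase RPT1 was at -0.25 and the receptor RPN10 at -0.19, with the stages overlapping for both. In all, RPN3, RPT2 and RPT3 had every M2 library below every T0 library, a separation that 16.9% of all genes showed.

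**Figure D2:**
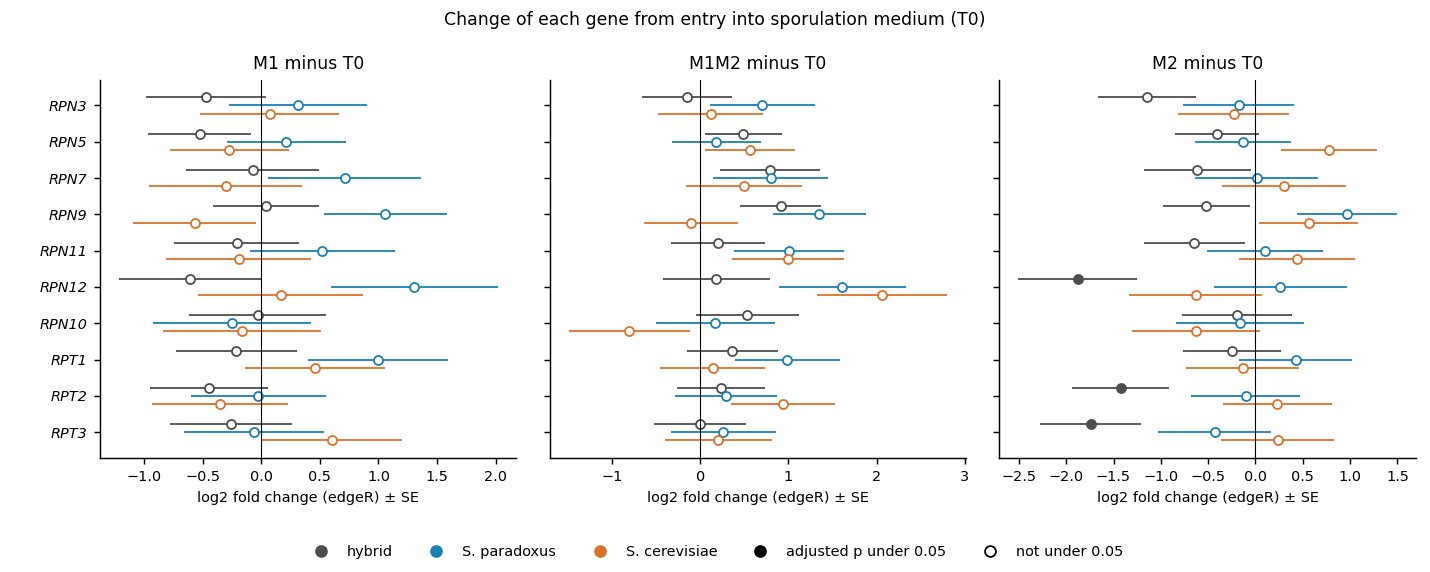
Log2 change (horizontal axis) of each regulatory particle gene (vertical axis) at M1, M1M2 and M2 relative to T0, with a panel for each stage. Colours are the hybrid, S. paradoxus and S. cerevisiae, and the values are from the edgeR model. Bars are standard errors, filled points have an edgeR adjusted p under 0.05, and the solid vertical line is 0. The filled points are RPN12, RPT2 and RPT3 in the hybrid at M2, at -1.88, -1.43 and -1.74.

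At the earlier hybrid stages no member passed. At M1 relative to T0 the members' median log2 change was -0.24 (all genes -0.06), with 1 positive, no call at an adjusted p under 0.05 and none at an unadjusted p under 0.05, while 12.5% of all genes were called. At M1M2 relative to T0 the median was 0.3 (all genes -0.04), with 8 positive, 0 called by edgeR, 0 at an unadjusted p under 0.05, and 22.1% of all genes called. RPN9, a lid scaffold gene, was the member that separated there: it had 1380, 1370, 1430 and 1700 CPM at M1M2 and 472, 701, 1090 and 869 CPM at T0. All 4 M1M2 libraries were above all 4 T0 libraries, as for 14.7% of all genes. Its log2 change of 0.91 passed with DESeq2 (adjusted p = 0.0293) and, at 1.06, with edgeR without the 4 shallow libraries (0.0228).

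Taken stage by stage, the hybrid changes were all positive into M1M2 and none was positive out of it. From M1 to M1M2 all 10 log2 changes were positive with a median of 0.63 (all genes 0.11), edgeR called 0 of them, RPN5 alone had an unadjusted p under 0.05 (1.01, SE 0.44, adjusted p = 0.194), and 7.4% of all genes were called. RPN5, RPN7, RPN9 and RPN12 had every M1M2 library above every M1 library, as did 10.6% of all genes. RPN5, a lid scaffold gene, had 2610, 2510, 1860 and 2480 CPM at M1M2 and 743, 968, 1270 and 1700 CPM at M1.

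From M1M2 to M2 none of the 10 log2 changes was positive, and their median was -1.2, against -0.08 over all genes. EdgeR called 0 members, 6 had an unadjusted p under 0.05, and 0.679% of all genes were called. The largest values were -2.06 for RPN12 (SE 0.63, adjusted p = 0.128), -1.74 for RPT3 (SE 0.54, 0.128), -1.66 for RPT2 (SE 0.51, 0.131) and -1.43 for RPN9 (SE 0.46, 0.151). RPN9 had 674, 661, 477 and 370 CPM at M2, all below its M1M2 values given above. RPT3 had 831, 1540, 868 and 1870 CPM and RPT2 had 1490, 1870, 1270 and 1990 CPM at M1M2, all above their M2 values. Every M2 library lay below every M1M2 library for RPN3, RPN5, RPN7, RPN9, RPN12, RPT2 and RPT3, a separation shown by 5.4% of all genes.

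The other 6 members, RPN7, RPN3, RPN5, RPN11, RPN10 and RPT1, stood between -1.40 and -0.61 in this step. DESeq2 called RPN9 (-1.09, adjusted p = 0.0208) and RPN12 (-1.96, 0.0154), and edgeR called RPN12 (-2.16, 0.0258) and RPT2 (-1.71, 0.0444) without the shallow S. cerevisiae M1M2 replicate 2, which is in neither hybrid group. With relative log expression factors the members' median was -0.76 and that of all genes 0.1, again with no positive member. Leaving out 1 library at a time kept the members' median between -1.34 and -1.13.

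In S. paradoxus the members stood higher at M1M2 than at T0, short of the threshold. All 10 log2 changes were positive, with a median of 0.75 against -0.17 over all genes. EdgeR called 0 members, 2 had an unadjusted p under 0.05, and 9.34% of all genes were called. RPN12 had 1310, 919 and 709 CPM at M1M2 and 320, 308 and 334 CPM at T0 (log2 change 1.61, SE 0.72, adjusted p = 0.174). RPN9 had 1700, 1520 and 901 CPM at M1M2 and 626, 560 and 427 CPM at T0 (1.35, SE 0.53, adjusted p = 0.105). Neither gene's stages overlapped, and the same held for RPN11 (1.01) and RPT1 (0.99), as for 18.5% of all genes. Without the 4 shallow libraries both passed with edgeR, RPN9 at 1.52 (adjusted p = 0.00957) and RPN12 at 1.78 (0.0108), and DESeq2 on all libraries called RPN9 (1.46, 0.00303).

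The S. paradoxus levels at M1 were already above T0 for some members. The median change at M1 was 0.42 (all genes -0.1), with 7 positive, 0 called by edgeR, 1 at an unadjusted p under 0.05 and 3.36% of all genes called. RPN9 had 674, 1090 and 1600 CPM and RPN12 had 879, 755 and 740 CPM at M1, above all their T0 values, and RPT1 separated in the same way, as 10.3% of all genes did. At M2 the median relative to T0 was -0.05 (all genes -0.33), with 0 called, none at an unadjusted p under 0.05 and 15.1% of all genes called. RPN9 had 888, 1180 and 1090 CPM at M2, all above T0, as for 14.8% of all genes. DESeq2 called RPN9 at M1 (1.16, adjusted p = 0.0481) and at M2 (1.11, 0.0274). From M1M2 to M2 none of the 10 changes was positive (median -0.63, all genes -0.16), 0 members and 0% of all genes were called, no member had an unadjusted p under 0.05, and RPN11 and RPN12 separated downward, as 11% of all genes did. From M1 to M1M2 the median was 0.31 (all genes -0.04), with 0 called, 0 at an unadjusted p under 0.05 and 1.84% of all genes called.

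In S. cerevisiae no member was called against T0, and both M1 and M1M2 include a shallow library. At M1, M1M2 and M2 the median change from T0 was -0.18, 0.35 and 0.23 (all genes 0.02, 0.03 and 0), with 0 members called by edgeR at each and 8.86%, 12.4% and 22.8% of all genes called. RPN12 at M1M2 was the 1 member with an unadjusted p under 0.05 (2.06, adjusted p = 0.0542; DESeq2 1.99, 0.0221). Its M1M2 values were 602, 7390 and 477 CPM, the second of them from 92 counts in the shallow replicate 2, and its T0 values were 519, 554 and 871 CPM. RPN5, with 1490, 1450 and 2110 CPM at M1M2, was the 1 member with every M1M2 library above every T0 library (10.5% of all genes), and none was wholly below (19.7%). The M1M2 median was -0.21 without replicate 3 and 0.10 without replicate 2.

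At M2 the lid genes RPN5, with 2490, 1710 and 1680 CPM against 1210, 1120 and 1110 CPM at T0, and RPN9, with 1430, 1250 and 1160 CPM against 651, 1000 and 942 CPM at T0, had every S. cerevisiae M2 library above every T0 library. That separation was shown by 20.8% of all genes. RPN12 fell from M1M2 to M2 (log2 change -2.69, SE 0.75, edgeR adjusted p = 0.0126), with 555, 281 and 417 CPM at M2; 9.11% of all genes were called in this step and 4.59% were called lower. The call rests on S. cerevisiae M1M2 replicate 2: without it the change was -0.38 (adjusted p = 0.89). It was also lost without S. cerevisiae M2 replicate 2 (-2.48, 0.0836) or replicate 3 (-2.69, 0.0539). From M1 to M1M2 the median was 0.63 (all genes 0.01), with 0 called, 2 at an unadjusted p under 0.05 and 2.33% of all genes called.

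The hybrid was then set against each parent at the same stage, which asks whether its expression departs from both species. No member was called in the hybrid minus S. paradoxus or minus S. cerevisiae at any stage, by edgeR, by DESeq2 or by limma on the deposited transformed values. Against S. paradoxus 2.1%, 1.42%, 0.84% and 0.873% of all genes were called at T0, M1, M1M2 and M2, and against S. cerevisiae 0.84%, 5.37%, 8.34% and 1.16%. The unadjusted p was under 0.05 for 1 member at M1M2 and 1 at M2 against S. paradoxus, and for 1 at M1M2 and 3 at M2 against S. cerevisiae.

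The lowest hybrid values relative to the parents were at M2. The members' median there was -0.45 against S. paradoxus (all genes 0.11) and -0.62 against S. cerevisiae (all genes -0.03). RPN9, with 674, 661, 477 and 370 CPM in hybrid M2 libraries, had 888, 1180 and 1090 CPM in S. paradoxus M2 libraries and 1430, 1250 and 1160 CPM in S. cerevisiae M2 libraries. Every hybrid library was below every parental library. Its log2 difference was -0.94 against S. paradoxus (SE 0.49, adjusted p = 0.459) and -1.23 against S. cerevisiae (SE 0.49, 0.293).

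RPT2 separated in the same way, with 340 to 700 CPM in hybrid M2 libraries, 1390, 1190 and 885 CPM in S. paradoxus M2 libraries and 1630, 1000 and 928 CPM in S. cerevisiae M2 libraries. Its differences were -1.14 (SE 0.54, adjusted p = 0.408) and -1.18 (SE 0.54, 0.416). RPT3 was below all S. cerevisiae libraries (775, 875 and 1490 CPM; -1.46, SE 0.56, adjusted p = 0.26) and overlapped S. paradoxus (655, 956 and 333 CPM; -0.76). RPN5 was also below all S. cerevisiae libraries. These 2 genes against S. paradoxus and 4 against S. cerevisiae compare with 5.82% and 6.24% of all genes that separated downward.

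At the other stages the differences ran both ways. RPN12 was above all S. paradoxus libraries at T0 (1.33, SE 0.68, adjusted p = 0.381; 10.3% of genes separated upward) and below all of them at M1 (a separation of 5.01% of genes). RPN5 was above all S. paradoxus libraries at M1M2, with 1860 to 2610 CPM in the hybrid against 1150, 1310 and 910 CPM in S. paradoxus (1.07, SE 0.49, adjusted p = 0.721; 7.08% of genes separated upward). RPN7, a lid scaffold gene, had 1040, 1480, 1180 and 1800 CPM in hybrid M1M2 libraries against 525, 80.3 and 982 CPM in S. cerevisiae M1M2 libraries (1.26), where 80.3 CPM is 1 count. RPN7 and RPN9 were above all S. cerevisiae libraries there (11.7% of genes), and RPN7 was at M1 as well (7.69%).

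No member was called by edgeR against both parents in the same direction at any stage, and of all genes 0.226%, 1.13%, 0.485% and 0.226% were at T0, M1, M1M2 and M2. Relative to the mean of the parents 0 members were called, with 1.03%, 2.55%, 4.62% and 1.2% of all genes called at the 4 stages and 3 members with an unadjusted p under 0.05 at M2. The members' median there was -0.38 (all genes 0.09) with 1 positive. With relative log expression factors it was -0.2 (all genes 0.184) with 5 positive. A contrast chosen after the values were seen set the hybrid's change against the mean change of the parents. From T0 to M1 and to M1M2 it called 0 members, with 0 and 1 at an unadjusted p under 0.05, and 0% and 0.42% of all genes. From T0 to M2 the members' median was -0.93 (all genes -0.04), 0 members and 0% of all genes were called by edgeR and 4 members had an unadjusted p under 0.05: RPN12 (-1.69), RPT3 (-1.64), RPT2 (-1.49) and RPN9 (-1.28), with adjusted p from 0.609 to 0.668. From M1M2 to M2 the median was -0.75 (all genes -0.02) with 0.0646% of all genes called and RPN9 (-1.57) and RPT3 (-1.41) lowest. With relative log expression factors that median was -0.19 (all genes 0.174) with 3 positive.

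**Figure D3:**
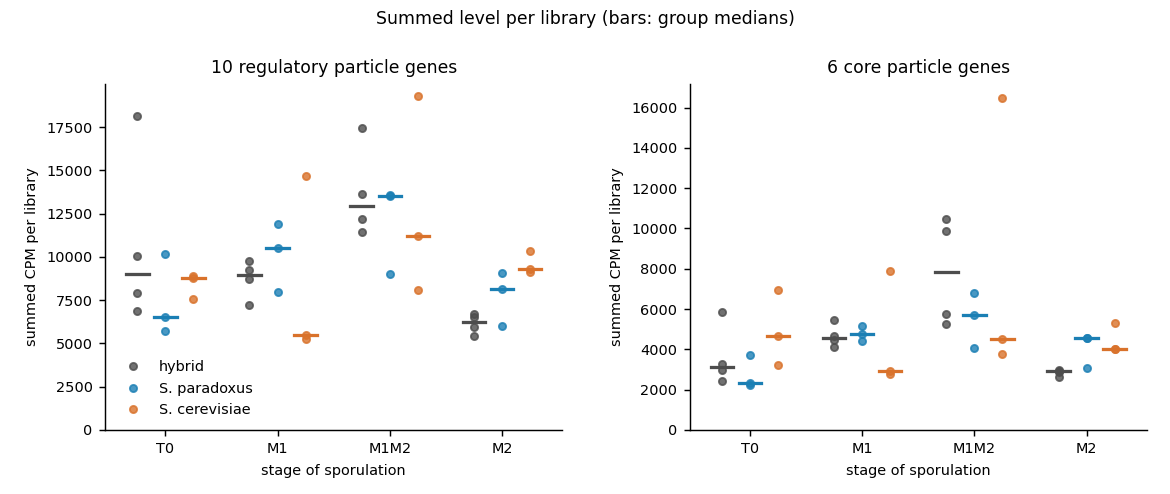
Summed level in CPM (vertical axis) of the 10 regulatory particle genes and of 6 core particle genes in each library at T0, M1, M1M2 and M2 (horizontal axis), in hybrid, S. paradoxus and S. cerevisiae. Points are libraries and short bars are group medians; the hybrid median of the regulatory particle genes is 12900 CPM at M1M2 and 6220 CPM at M2, and hybrid T0 replicate 4 stands at 18200 CPM.

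Between the species, S. paradoxus minus S. cerevisiae, edgeR called 0 members at each stage, as did DESeq2 and limma, with 5.04%, 2.84%, 3.39% and 2.13% of all genes called at T0, M1, M1M2 and M2. The members' medians were -0.12, 0.3, 0.03 and -0.2 (all genes 0.12, 0.03, -0.01 and -0.15). An unadjusted p under 0.05 was reached by 0, 1, 1 and 1 members.

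RPN7 had 789, 1580 and 1290 CPM in S. paradoxus M1 libraries and 408, 40.7 and 522 CPM in S. cerevisiae M1 libraries, where 40.7 CPM is 4 counts of a shallow library. The species did not overlap (10.7% of genes separated upward), and the difference was 1.88 (SE 0.67, adjusted p = 0.121). At T0 its difference was 0.86 and at M1M2 1.17 (adjusted p = 0.511).

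RPN5 was lower in every S. paradoxus library at M1M2, with 1150, 1310 and 910 CPM against 1490, 1450 and 2110 CPM in S. cerevisiae (8.27% of genes separated downward). The same held at M2, with 781, 1250 and 685 CPM in S. paradoxus against 2490, 1710 and 1680 CPM in S. cerevisiae (-1.11, SE 0.51, adjusted p = 0.289; 13.1% of genes). RPN12 had 320, 308 and 334 CPM in S. paradoxus T0 libraries against 519, 554 and 871 CPM in S. cerevisiae T0 libraries (-1.01), and RPN9 and RPT1 separated in the same direction, as 18.9% of genes did. RPN9 at M1 was at 0.94 (SE 0.53, adjusted p = 0.373), and its change from T0 to M1 differed between the species by 1.63, the largest such value of a member. No member's change from T0 was called between the species by edgeR, with 1.97%, 2.62% and 1.52% of all genes called at M1, M1M2 and M2, and 1 member with an unadjusted p under 0.05 at M1, 0 at M1M2 and 0 at M2. DESeq2 called RPN9 in this contrast at M1 (1.79, adjusted p = 0.0294) and at M1M2 (1.66, 0.0414).

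In the hybrid both alleles of a gene share a nucleus, so their comparison asks how far species differences lie in the gene's own sequence region. Summed over the members, the S. paradoxus allele held 65.9%, 50.9%, 49.3% and 46.2% of reads at T0, 49.5%, 51.9%, 49.2% and 54.9% at M1, 45.2%, 51.1%, 53.4% and 52.6% at M1M2, and 45.7%, 46.3%, 22.9% and 45.8% at M2. Over all genes it held 65.5% in T0 replicate 1, 49.5 to 51.8% in the other T0 libraries and 50.6 to 52% at the later stages. M2 replicate 3, the shallow library, is the one that stands apart among the members' sums.

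RPN5 was the 1 member called between alleles, at M2, where 1.7% of all genes were called and 0.734% were called lower. The S. paradoxus allele of RPN5 held 25.9%, 25.8%, 1.53% and 35.7% of its reads at M2. The value of 1.53% is 2 of 131 reads (95% exact Clopper-Pearson interval 0.185 to 5.41%, counting error only). All 4 libraries were below 50%, and the log2 ratio of the S. paradoxus to the S. cerevisiae allele was -2.05 (SE 0.57, edgeR adjusted p = 0.0476 with the library as a block).

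The same allele held 63.8%, 49.3%, 45.5% and 21.9% of RPN5 reads at T0, 38.4%, 44%, 42.4% and 64.3% at M1, and 24.6%, 42.4%, 30.2% and 29.8% at M1M2 (-1.13, SE 0.52, adjusted p = 0.546). The parents differed in the same direction at M2 (-1.11, above), without a call. The allele call was lost without hybrid M2 replicate 3 (-1.3, adjusted p = 0.224), replicate 1 (-2.3, 0.119) or replicate 2 (-2.3, 0.0934), and with relative log expression factors (-2.06, 0.0612).

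The other members' alleles did not pass. No member was called at T0, M1 or M1M2, where 0.0667%, 0.868% and 0.868% of all genes were, and 0, 0 and 1 members had an unadjusted p under 0.05. The members' medians were 0.17, -0.05, 0.26 and -0.38 at the 4 stages (all genes 0.47, 0.13, 0.13 and 0.12). RPN3 at M2 held 38.5%, 47.2%, 1.85% (1 of 54 reads) and 21.7% for the S. paradoxus allele (-1.63, SE 0.66, edgeR adjusted p = 0.28), so all 4 libraries were below 50%. RPN3 and RPN5 were the members wholly below 50% at M2, as were 8.01% of 2997 genes. RPN12 (55.8 to 100%, the 100% from 2 reads) and RPT3 (50.1 to 85.4%) were wholly above 50% there, as were 10.2% of genes.

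RPN10 at M2 held 81%, 71.3%, 1.05% (1 of 95 reads) and 95.5%, with the shallow replicate 3 opposite to the rest (1.39, SE 0.95, adjusted p = 0.647). Without that library the difference was 2.53 and passed (edgeR adjusted p = 0.048). With all 4 shallow libraries left out, 0 members were called at M2, RPN10 among those that did not pass. RPN9 at M2 held 46%, 40.7%, 97.7% (43 of 44 reads) and 81% (1.22, SE 0.73, adjusted p = 0.567). Within the shallow library single genes thus leaned almost wholly to 1 allele in either direction, RPN5, RPN3 and RPN10 to S. cerevisiae and RPN9 to S. paradoxus. At M1M2 the S. paradoxus allele held over 50% in every library for RPN7 (59.5 to 80%), RPN11 (52.1 to 67.9%) and RPT2 (52 to 64.1%), as for 18.1% of 2997 genes. It held under 50% in every library for RPN5 and for RPT1 (34.8 to 49.9%), as for 12.6% of genes.

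**Figure D4:**
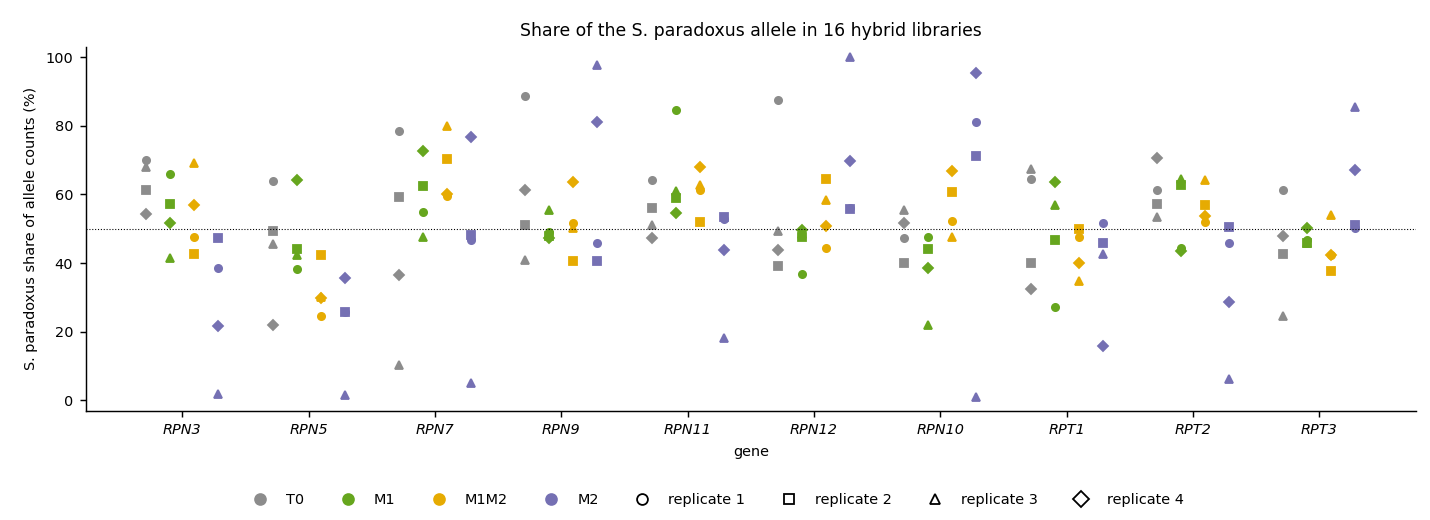
Share of reads from the S. paradoxus allele in percent (vertical axis) for each regulatory particle gene (horizontal axis) in the 16 hybrid libraries, with stage by colour and replicate by marker; the dotted line is 50%. RPN5 at M2 lies between 1.53 and 35.7%, and the shallow replicate 3 at M2 has points near 0 and 100%, while RPN10 in M2 replicate 4 is at 95.5%.

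Of the 14 core particle genes 6 were tested, and 12 of the 14 carry the 9-letter promoter match. The core particle holds the catalytic chambers that the regulatory particle feeds. At M1M2 relative to T0 in the hybrid 2 of the 6 rose and 0 fell, all 6 changes were positive, and the median was 1.17. Over all genes 301 of 3094 rose, 22.1% were called in either direction, and the median was -0.04. PRE1, a subunit of the catalytic rings, had 427, 1560, 643 and 2100 CPM at M1M2 and 276, 421, 361 and 560 CPM at T0 (1.55, SE 0.53, adjusted p = 0.0254; 1.25 and 0.112 without hybrid M1M2 replicate 4). PRE6, a subunit of the outer rings, had 982, 2120, 1480 and 2290 CPM at M1M2 and 736, 490, 644 and 480 CPM at T0, without overlap (1.54, SE 0.53, adjusted p = 0.0267).

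From M1M2 to M2 in the hybrid 0.679% of all genes were called, with a median change of -0.08. None of the 6 core changes was positive, their median was -1.59, and PRE1 fell, with 301, 226, 108 and 324 CPM at M2 (-2.28, SE 0.54, edgeR adjusted p = 0.0178). Without hybrid M1M2 replicate 4 that change was -1.95 (adjusted p = 0.161), and the PRE1 calls were also lost without hybrid T0 replicate 1 or M1M2 replicate 2 (against T0) and without hybrid M1M2 replicate 2 or M2 replicate 2 (against M1M2). In S. paradoxus the protease subunit gene PRE3 rose at M1M2, with 899, 1010 and 794 CPM against 250, 280 and 294 CPM at T0 (1.71, SE 0.58, adjusted p = 0.049), and at M2, with 765, 1320 and 722 CPM (1.76, SE 0.58, 0.0281). No PRE3 library of either later stage overlapped T0. Both calls were lost without any 1 of the S. paradoxus T0 libraries (edgeR adjusted p of 0.127 to 0.145 at M1M2 and 0.077 to 0.0951 at M2). The M1M2 call was also lost with a replicate block (edgeR adjusted p = 0.0636) and without any 1 of the S. paradoxus M1M2 libraries (0.0701 to 0.0918). Leaving out 1 of many libraries outside the compared groups lost it as well. In S. cerevisiae PRE9 was called up from M1 to M1M2 (2.60, adjusted p = 0.0425) and down from M1M2 to M2 (-2.37, 0.0255), and both were lost without the shallow M1M2 replicate 2 (0.40, adjusted p = 0.928, and -0.17, 0.967). Of all genes 9.34% and 15.1% were called at M1M2 and M2 against T0 in S. paradoxus. In S. cerevisiae 2.33% were called from M1 to M1M2 and 9.11% from M1M2 to M2. No core gene was called between the species, between the hybrid and a parent, or between alleles.

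Of 8 assembly and associated factors tested, none was called between hybrid stages, and from M1M2 to M2 none of their changes was positive (median -1.19). SPG5, which is needed for proteasome assembly in stationary cells, was the 1 gene called among them. It had 2660, 2580 and 2600 CPM in S. paradoxus at M2 against 647, 688 and 737 CPM at T0 (1.92, SE 0.64, adjusted p = 0.032), and 674, 450 and 517 CPM in S. cerevisiae at M2 (S. paradoxus minus S. cerevisiae 2.25, SE 0.65, adjusted p = 0.0477). No libraries overlapped, but both calls sit near the threshold and were lost without 1 of several single libraries, with edgeR adjusted p up to 0.0974 and 0.206. Of all genes 15.1% and 2.13% were called in these contrasts. In the ubiquitin system 14 genes were tested. UBC1, a ubiquitin-conjugating enzyme gene, rose at M2 in all 3 genotypes, with 1770, 2020, 3680 and 2280 CPM in the hybrid at M2 against 229, 176, 16.4 and 756 CPM at T0 (3.06, SE 0.66, adjusted p = 0.000263), and by 2.60 in S. paradoxus (0.0101; 2.43 and 0.0607 without S. paradoxus T0 replicate 3) and 2.90 in S. cerevisiae (0.00278).

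UBA1, the ubiquitin-activating enzyme gene, fell at M1M2 in the hybrid, with 393, 246, 317 and 277 CPM at M1M2 against 1320, 1170, 1550 and 581 CPM at T0 (-1.91, SE 0.52, adjusted p = 0.0043), and in S. paradoxus (-1.84, adjusted p = 0.039; -1.71 and 0.0781 with relative log expression factors). UBP1, a deubiquitinase gene, fell at M1 in the hybrid, with 58.6, 140, 257 and 73.4 CPM at M1 against 844, 766, 1150 and 1410 CPM at T0 (-2.98, SE 0.64, adjusted p = 0.000579). In all, 1 ubiquitin gene rose and 0 fell at M2 in the hybrid, 3 rose and 0 fell in S. paradoxus and 2 rose and 0 fell in S. cerevisiae, with median changes of 0.26, 0.27 and 0.16 over the 14 genes. Of all genes 26%, 15.1% and 22.8% were called there. The counts include TOM1, a ubiquitin ligase gene, in S. paradoxus (1.71) and S. cerevisiae (1.68), and both TOM1 calls were lost with a replicate block (adjusted p of 0.0786 and 0.051) and without 1 of many single libraries.

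Outside these lists, the 5 genes whose 12 group means of log2 CPM were most like the mean of the members were RAD50, a DNA break repair gene (r of 0.894), YML003W (0.876), PRP21, a splicing factor gene (0.855), FCY22 (0.821) and YOR015W (0.786). Among the core genes, PRE1 (0.842) and PRE2 (0.779) stood near that range, followed by PRE6 (0.754) and PRE9 (0.739). PRE3 (0.421) and PRE5 (0.377) were far less like the members. All these points share libraries and scaling.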

How the data were processed

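RNA-seq libraries of sporulating hybrid, S. paradoxus and S. cerevisiae cultures were compared in groups taken from the labels. The authors deposited raw counts per gene and per hybrid allele, the gene value being the allele sum in all 55408 hybrid cells compared and the same in both tables in all 83112 parental cells, and log2-like variance-stabilised values of the same. Bowtie 0.12.7 and DESeq 1.8.3 are named per the submitters' processing notes; genome builds and read assignment are not given in the sources used here. Rows naming no gene (246; 0.392 to 4.95% of counts) were left out. Names, coordinates and sequences are RefSeq R64, which 2780 genes matched.

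Counts were fitted with edgeR 4.0.16 (R 4.3.3): filterByExpr by group, TMM factors, quasi-likelihood F test, 3094 genes tested, Benjamini-Hochberg threshold 0.05 within a contrast, prior count 2 for log2 CPM. The common coefficient of variation was 0.871. Alleles were fitted over 16 hybrid libraries with the library as a block (2997 genes). The p-values set a change against the spread between libraries of a group. That spread is estimated over all libraries of a fit, so libraries outside the compared groups contribute to it. The scripts were checked on simulated counts. Alternatives were relative log expression factors, no filter, DESeq2 1.42.0, limma 3.58.1 on the deposited values, a replicate block, no library block, no shallow libraries and each library left out. Values per library are given for up to 4 members per comparison, those called most often and then those with the largest change, and in the other lists for called genes with the largest change. Further per-library values were added where libraries separated or stood apart, chosen after values were seen. Members and lists were chosen with earlier results of these data known.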

Additional observations from a re-analysis of the deposited data

Results flagged for a closer look

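In groups of 4 hybrid libraries, single libraries stood apart from the other 3 by Dixon's test in 7 of 92 groups; chance alone gives about 1 in 20. At T0, RPT3 had 2960 CPM in replicate 4 against 610 to 867 CPM in the others, and over all genes the S. paradoxus allele held 65.5% of reads in replicate 1 against 49.5 to 51.8%. At M1 the S. paradoxus allele of RPN12 held 36.9% in replicate 1 against 47.6 to 49.7%. At M2, RPN11 had 119 CPM in the shallow replicate 3 against 800 to 892 CPM, and RPT1 had 1250 CPM there against 711 to 715 CPM. In that library the S. paradoxus alleles of the 10 members together held 22.9% against 45.7 to 46.3%. Over all genes the S. paradoxus share at M2 was 50.6% in replicate 4 against 51.8% in the others. What sets these libraries apart was not tested.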

How the results depend on the processing

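Member calls for stages against T0 were 3 of 90, with 1 under relative log expression factors, 7 under DESeq2, 6 without the 4 shallow libraries and 1 with limma on the deposited values. Leaving out 1 library at a time gave 0 to 4, the 0 without hybrid T0 replicate 4 and 1 without hybrid M2 replicate 4. For each stage against the one before, the count was 1 of 60, with 3 under DESeq2, 0 without the shallow libraries, 0 with a replicate block and 0 to 2 over left-out libraries. Counts for the species at each stage and for the hybrid against its parents were 0 under every setting run. For the species' change from T0 the count of 0 of 30 was 2 under DESeq2 (RPN9 at M1 and M1M2) and 0 over left-out libraries. The allele count of 1 of 40 was 0 under relative log expression factors, without the library block (RPN5 -1.85, adjusted p = 0.0774) and without the shallow libraries, and 0 to 1 over left-out libraries, with 0 without hybrid T0 replicate 3, M1 replicates 2 and 3, M1M2 replicates 1, 2 and 4, and M2 replicates 1 and 2. The cause of these moves was not tested.

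UBC7, a ubiquitin-conjugating enzyme gene, was at -3.18 from M1M2 to M2 in S. cerevisiae, but at 0.18 without the shallow libraries and from -3.87 to 0.17 over left-out libraries, the 0.17 without S. cerevisiae M1M2 replicate 2.

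Libraries with the same replicate number were not treated as paired: of 60 pairs 7 had a correlation over 0.1, among them hybrid replicate 2 at T0, M1 and M2 (0.138 to 0.18), with a range of -0.144 to 0.208 and a median of 0.0265. With a replicate block the T0 count was 2, with RPT2 at -1.33 (adjusted p = 0.0607), and S. cerevisiae RPN12 from M1M2 to M2 was at -1.85 (0.206).

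Depth limits single values: in the shallow libraries some members rest on 1 to 4 counts, and in hybrid M2 replicate 3 allele shares rest on 2 (RPN12) to 131 reads (RPN5).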
